A study of Homo sapiens with 24 samples.

Results

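The enzymes described here supply dividing cells with the building blocks of DNA. The members were 7 genes fixed by name, RRM1, RRM2, TYMS, TK1, DUT, DCK and DTYMK, and each probe of the array whose RefSeq accession belonged to one of them was taken. All 7 genes were found, through 8 probes on both array versions, among 36639 genes tested at 24 h and 37694 at 48 h. Values for DUT came from 2 probes and for the other genes from 1 each.

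Expression was measured in LNCaP, an established androgen-responsive prostate cancer cell line, after electroporation with an siRNA duplex. The cells were grown in RPMI medium with fetal bovine serum. The control group, si-SCRL, received a negative control duplex, si-A1 received an siRNA against the lncRNA TAPIR-1 and si-A2 an siRNA against the lncRNA TAPIR-2. Each siRNA was sampled in 4 biological replicates at 24 h and 4 at 48 h after treatment, with 1 one-colour Agilent array per sample and a newer array version at 48 h. The arrays of each time point lay on 2 slides, replicates 1 and 2 of every siRNA on one and replicates 3 and 4 on the other. The arrays covered 1 siRNA per target in 1 cell line, so an effect of the duplex and an effect of its target cannot be told apart on these arrays.

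Ribonucleotide reductase converts ribonucleoside diphosphates to deoxyribonucleoside diphosphates and is built from a large catalytic subunit, RRM1, and a small subunit, RRM2, which carries the radical needed for the reaction. The thymidine branch runs through DUT, which cleaves dUTP to dUMP, TYMS, which methylates dUMP to dTMP, and DTYMK, which phosphorylates dTMP to dTDP. Salvage kinases recover deoxynucleosides from outside the pathway, with TK1 acting on thymidine in the cytosol and DCK mainly on deoxycytidine. RRM2, TYMS and TK1 are known as genes with high expression in S phase, and several of these enzymes are targets of antimetabolite drugs. On RNA pooled from a culture, fewer cells in S phase and less RNA per cell cannot be told apart.

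The proximal promoters of 5 of the 6 genes called lower after si-A1 at 48 h are shown first. For the 5 genes RRM2, TYMS, TK1, DUT and DTYMK the 130 bases before the start are printed on the strand of the gene, from RefSeq on GRCh38.p14, with searched words in capitals. Of the start sites RefSeq lists for a gene, the one with the most searched words in this stretch is shown. DCK, also called lower then, held no searched word before its start and is not printed.
RRM2, chr2:10122609-10122738, plus strand: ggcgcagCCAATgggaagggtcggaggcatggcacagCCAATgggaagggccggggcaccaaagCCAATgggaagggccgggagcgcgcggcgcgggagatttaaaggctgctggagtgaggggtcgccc
TYMS, chr18:657523-657652, plus strand: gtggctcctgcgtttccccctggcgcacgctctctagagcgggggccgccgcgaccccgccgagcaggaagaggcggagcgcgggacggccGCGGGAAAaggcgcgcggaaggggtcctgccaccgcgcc
TK1, chr17:78187053-78187182, minus strand: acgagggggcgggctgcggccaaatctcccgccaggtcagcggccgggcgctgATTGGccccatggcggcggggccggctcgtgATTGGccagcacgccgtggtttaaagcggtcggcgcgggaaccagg
DUT, chr15:48332067-48332196, plus strand: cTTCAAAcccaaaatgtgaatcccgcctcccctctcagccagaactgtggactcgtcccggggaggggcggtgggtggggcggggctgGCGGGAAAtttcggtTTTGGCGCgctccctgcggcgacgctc
DTYMK, chr2:241686816-241686945, minus strand: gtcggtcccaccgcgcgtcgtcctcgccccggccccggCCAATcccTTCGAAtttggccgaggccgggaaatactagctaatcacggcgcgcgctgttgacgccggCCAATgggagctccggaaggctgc

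The words searched, on both strands, were TTTCCCGC, TTTGGCGC, TTTGCCGC and TTTCGCGC for E2F sites, TTTGAA and TTCGAA for the cell cycle genes homology region (CHR), and CCAAT for the CCAAT box. The search covered 250 bases before to 50 bases after each start. In the printed stretches RRM2 held 3 CCAAT boxes, beginning 123, 93 and 66 bases before the start. TK1 held 2 in the reverse orientation, at 77 and 46 bases. The DUT stretch held a reversed CHR word at 129 bases and E2F words at 42 and 27 bases, and TYMS held an E2F word at 39 bases. In DTYMK a CCAAT box at 92 bases was followed by a CHR word at 84 bases, with a further CCAAT box at 24 bases. Outside the printed stretches, a word of the E2F set lay 22 bases after the DCK start, and RRM1 had a CCAAT box at 28 bases and a reversed CHR word at 199 bases before its start. A further reversed CHR word of DUT lay at 214 bases, and a CCAAT box of RRM2 lay at the far end of the window before its other start.

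An E2F word was thus found in 3 of the 7 genes, counting any of their start sites, against 3.99% of all 27305 genes with such a sequence. A CHR word was found in 3 of 7, against 19.5% of all genes, and a CCAAT box in 4 of 7, against 39.7%. Genes with more start sites have more room for a match, and the 7 genes had 12 windows. Counted by window, E2F words were in 3 of 12, against 3.31% of all 35116 windows. The CHR count was 3 of 12, against 16.4%, and the CCAAT count 5 of 12, against 34.6%. These matches describe letters in a window and no binding was measured. By RefSeq's gene bounds RRM2 and DTYMK lie on chromosome 2, at 10122568-10211010 and 241675747-241686815, DCK on chromosome 4 at 70993649-71030914 and RRM1 on chromosome 11 at 4094685-4138932. DUT lies on chromosome 15 at 48331095-48343373, TK1 on chromosome 17 at 78174079-78187204 and TYMS on chromosome 18 at 657653-673578. The exon under each probe was not determined.

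As to the arrays themselves, the median processed intensity, the brightness of a spot after background subtraction, ranged from 24.4 to 57.2 on the 24 h arrays and from 20.4 to 32.2 on the 11 arrays used at 48 h. One array, 48 h si-A2 replicate 2, was left out of the main results, because its median intensity was only 13.9. All 7 LNCaP markers tested, among them KLK3, KLK2, FOLH1, TMPRSS2 and HOXB13, were well above background on all 23 arrays, and at 48 h KLK2 was called lower after si-A1, with a log2 fold change of -1.07. Of the 5 markers of other cell types, PTPRC and PECAM1 had a probe well above background on all 12 arrays at 24 h, PTPRC also on all 11 at 48 h, while KRT5 was well above background on none. No such marker was called in any comparison. The array carried a probe for TAPIR-2, whose mean log2 intensity at 24 h was 5.04 ± 0.20 (SD, n = 4) in si-SCRL, 4.64 ± 0.32 (n = 4) in si-A1 and 4.06 ± 0.74 (n = 4) in si-A2 (si-A2 against si-SCRL, adjusted p = 0.23). At 48 h it was 4.64 ± 0.58 (n = 4), 4.82 ± 0.81 (n = 4) and 4.68 ± 0.90 (n = 3), so the arrays labelled si-A2 did not show a lower signal of this probe then and are named here by their labels. A second TAPIR-2 probe on the 48 h version was well above background on 0 of the 11 arrays. No probe was matched to TAPIR-1, so the labels of si-A1 were not checked on the arrays.

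RRM2 showed the largest change of the 7 genes after si-A1 at both time points. At 24 h its quantile-normalized log2 intensity, the scale of all levels below, was 8.85, 8.65, 9.86 and 8.91 on the 4 si-SCRL arrays. The si-A1 arrays gave 6.11, 5.84, 6.18 and 5.64, and the si-A2 arrays 6.27, 6.11, 6.05 and 6.33. Neither siRNA group overlapped the controls, and the si-A1 and si-A2 arrays overlapped each other. RRM2 was lower by a log2 fold change of -3.12 ± 0.24 (SE) after si-A1, to 11.5% of the control level (adjusted p = 7.08e-05), and of -2.88 ± 0.24 after si-A2, to 13.6% (adjusted p = 0.000102). These p-values came from limma and were adjusted by Benjamini-Hochberg over every gene tested, and calling required an adjusted p under 0.01 and a log2 fold change of 0.5 or more in size. Both comparisons share the si-SCRL arrays, of which replicate 3 lay highest for RRM2, DUT and DCK. Within the slides, the RRM2 difference was -2.77 and -3.47 for si-A1 and -2.56 and -3.19 for si-A2.

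At 48 h the RRM2 levels of the siRNA groups lay apart. The si-SCRL arrays gave 8.96, 9.13, 8.94 and 9.46, the si-A1 arrays 5.22, 5.60, 5.09 and 5.54, and the 3 si-A2 arrays 8.04, 6.89 and 7.66. All si-A2 values thus lay between the si-A1 and the si-SCRL values. RRM2 fell by 3.76 ± 0.24 on the log2 scale after si-A1, to 7.39% of the control level (adjusted p = 4.94e-05). With normexp background correction, an alternative setting, the si-A1 change was smaller, at -2.57 at 48 h and -2.3 at 24 h. The si-A2 change was -1.56 ± 0.26, or 33.9% of the control level, and it missed the threshold (adjusted p = 0.0207). The direct comparison of the 2 siRNAs gave a level 4.59-fold higher in si-A2 than in si-A1 (log2 2.20 ± 0.26, adjusted p = 0.00344), with within-slide differences of 2.63, resting on 1 si-A2 array, and 1.96. This difference missed the threshold when only the groups compared were fitted (2.23, adjusted p = 0.0238), and likewise without si-A1 replicate 1, 2 or 3 or si-A2 replicate 1 or 4, where it lay between 1.90 and 2.25 with an adjusted p of at most 0.0287.

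RRM1, the large subunit, was called in no comparison. Its 24 h levels ran from 6.98 to 7.99 in si-SCRL, from 6.48 to 7.16 in si-A1 and from 6.90 to 7.36 in si-A2, and at 48 h from 6.3 to 7.60, from 5.63 to 6.73 and from 5.98 to 7.26. The groups overlapped at both times. The log2 fold changes of RRM1 were -0.64 ± 0.22 and -0.35 ± 0.22 at 24 h for si-A1 and si-A2, and -0.82 ± 0.18 and -0.42 ± 0.20 at 48 h. The smallest adjusted p was 0.0174 for si-A1 at 48 h. The slides differed for this gene at 48 h, where replicates 3 and 4 lay below replicates 1 and 2 in every group, and the within-slide differences for si-A1 were -0.71 and -0.94.

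**Figure D1:**
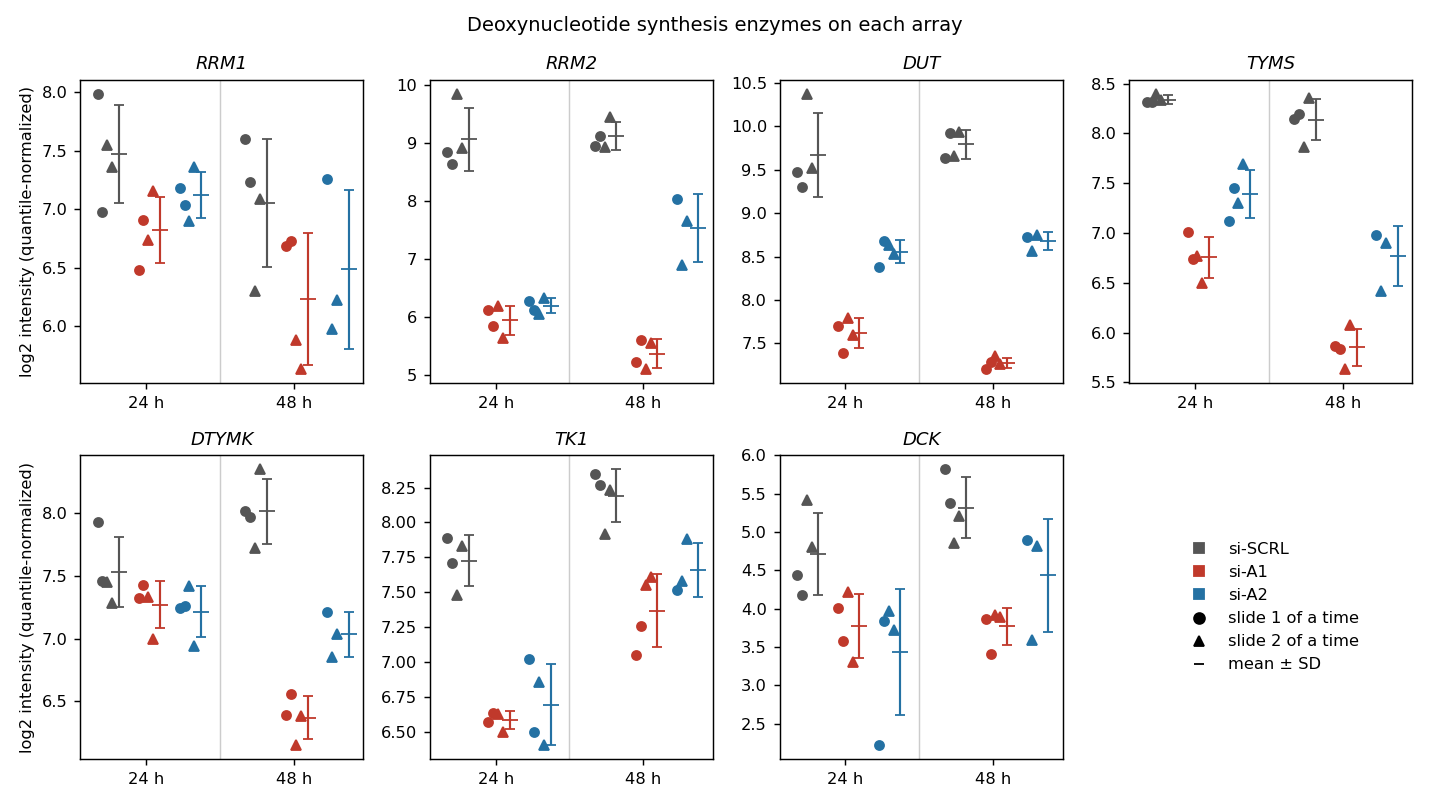
Quantile-normalized log2 intensity of the 7 enzymes on each of the 23 arrays used, by siRNA and time point, 1 point per array in order of replicate number (circles and triangles mark the slides of a time point) and bars for mean ± SD. Time points were normalized separately and levels are compared only within one. RRM2 lies below all si-SCRL arrays in both siRNA groups at each time, and at 48 h the si-A2 arrays, at 6.89 and above, lie clear of the si-A1 arrays, at 5.60 and below.

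In the thymidine branch, DUT and TYMS were called lower after si-A1 at both times and after si-A2 at 48 h, and the si-A2 arrays lay between the si-A1 and the control arrays each time. DUT stood at 9.48, 9.30, 10.38 and 9.52 in si-SCRL at 24 h. It stood at 7.70, 7.39, 7.79 and 7.60 in si-A1 and at 8.38, 8.68, 8.63 and 8.53 in si-A2. No si-A1 array reached a si-A2 array, and no si-A2 array reached a control. The log2 fold change was -2.05 ± 0.20 after si-A1 (24.1% of control, adjusted p = 0.000335) and -1.12 ± 0.20 after si-A2 (46.1% of control), where it was not called (adjusted p = 0.018). Without si-SCRL replicate 3 the si-A2 change was smaller, -0.90, but called (adjusted p = 0.00831).

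At 48 h DUT was measured at 9.64, 9.93, 9.66 and 9.94 in si-SCRL, at 7.20, 7.28, 7.35 and 7.26 in si-A1 and at 8.73, 8.56 and 8.75 in si-A2. The same order of the groups held, with a spread of at most 0.17 (SD) within a group. DUT fell by 2.52 ± 0.10 after si-A1, to 17.5% of control (adjusted p = 1.82e-05), and by 1.11 ± 0.11 after si-A2, to 46.2% (adjusted p = 0.00399). It was 2.64-fold higher in si-A2 than in si-A1 (log2 1.40 ± 0.11, adjusted p = 0.00112), with within-slide differences of 1.49 and 1.35. It missed the threshold without si-A2 replicate 1 (1.36, adjusted p = 0.0102) and when only the groups compared were fitted (1.40, adjusted p = 0.0106). The second, dimmer DUT probe gave log2 fold changes of -2.31 ± 0.25 and -1.17 ± 0.25 at 24 h for si-A1 and si-A2, and of -2.86 ± 0.14 and -1.13 ± 0.15 at 48 h. Its direct comparison at 48 h gave 1.72 ± 0.15 for si-A2 over si-A1 (adjusted p = 0.00103). Both DUT probes therefore gave the same order of the groups.

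TYMS was the steadiest gene among the 24 h controls, at 8.31, 8.31, 8.40 and 8.33. The si-A1 arrays gave 7.01, 6.74, 6.77 and 6.50 and the si-A2 arrays 7.12, 7.45, 7.30 and 7.69, so the 3 groups did not overlap. TYMS, the enzyme that makes thymidylate, fell by 1.58 ± 0.16 after si-A1 (33.4% of control, adjusted p = 0.000354). The si-A2 change of -0.95 ± 0.16 (51.9%) narrowly missed the threshold (adjusted p = 0.0107). At 48 h it was at 8.14, 8.19, 7.86 and 8.36 in si-SCRL, at 5.87, 5.83, 5.63 and 6.08 in si-A1 and at 6.98, 6.42 and 6.90 in si-A2. Again the 3 groups did not overlap. The fold changes were -2.29 ± 0.16 (20.5% of control, adjusted p = 6.73e-05) and -1.35 ± 0.18 (39.2%, adjusted p = 0.0084). The level in si-A2 was above that in si-A1 by 0.93 ± 0.18 at 48 h, which was not called (adjusted p = 0.0211).

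DTYMK passed the test after si-A1 at 48 h and not at 24 h. At 24 h its levels were 7.93, 7.46, 7.45 and 7.28 in si-SCRL, 7.32, 7.43, 7.33 and 7 in si-A1 and 7.24, 7.26, 7.42 and 6.94 in si-A2. These groups overlapped, with log2 fold changes of -0.26 ± 0.16 and -0.31 ± 0.16 (adjusted p = 0.532 and 0.518). At 48 h the levels were 8.02, 7.97, 7.72 and 8.35 in si-SCRL, 6.39, 6.56, 6.15 and 6.38 in si-A1 and 7.21, 6.85 and 7.04 in si-A2. No group overlapped another. DTYMK fell by 1.64 ± 0.15 after si-A1, to 32.0% of control (adjusted p = 0.000191). After si-A2 the change of -0.96 ± 0.16, to 51.3%, was not called (adjusted p = 0.02).

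The change of the effect between the time points was tested itself, on the probes that both array versions carry. The si-A1 effect on DTYMK at 48 h minus that at 24 h was -1.39 ± 0.21 on the log2 scale, the stronger fall being at 48 h (adjusted p = 0.00434), and it was the only one of the 7 genes called in this test, in which 0.159% of the 35820 probes tested were called for si-A1. The call rested on single arrays, being lost without si-A1 replicate 1, 2 or 3 or si-SCRL replicate 2 or 4 of 24 h, and without si-A1 replicate 1 or 3 or si-SCRL replicate 1 or 4 of 48 h. The difference then lay between -1.24 and -1.42, with an adjusted p between 0.0102 and 0.017. For si-A2 none of the 7 genes was called, against 0.0335% of 35823 probes. There RRM2 came closest, its effect being weaker at 48 h by 1.31 ± 0.37 (adjusted p = 0.298). Time point and array version cannot be told apart, and only effects measured within a version were compared.

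Of the salvage kinases, TK1 was lower after both siRNAs by about the same amount at 24 h. Its levels were 7.89, 7.71, 7.48 and 7.83 in si-SCRL, 6.57, 6.64, 6.63 and 6.50 in si-A1 and 7.02, 6.50, 6.86 and 6.41 in si-A2. The controls lay above all other arrays, and the siRNA groups overlapped each other. The log2 fold changes were -1.14 ± 0.16 for si-A1 (45.3% of control, adjusted p = 0.00329) and -1.03 ± 0.16 for si-A2 (49.0%, adjusted p = 0.00663), and the direct difference was 0.11 ± 0.16 (adjusted p = 0.891). The si-A1 call was lost without any of the si-A1 arrays or without si-SCRL replicate 1, 2 or 4 (adjusted p of at most 0.0168). The si-A2 call was lost without any of the si-A1 arrays, without si-A2 replicate 2, 3 or 4 or without si-SCRL replicate 1, 2 or 4 (adjusted p of at most 0.0284). At 48 h TK1 was at 8.35, 8.27, 7.92 and 8.23 in si-SCRL, at 7.05, 7.26, 7.55 and 7.61 in si-A1 and at 7.52, 7.58 and 7.88 in si-A2. The highest si-A2 array then lay just under the lowest control. The change was -0.83 ± 0.15 for si-A1 (56.4%, adjusted p = 0.00861) and -0.55 ± 0.17 for si-A2 (68.3%, adjusted p = 0.141, not called). Within the slides of 48 h the si-A1 change was -1.16 and -0.49, and its call was lost without any array other than si-SCRL replicate 3 (adjusted p of at most 0.0293).

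DCK was the dimmest of the 7 probes, and at 24 h it was well above background on all 4 si-SCRL arrays, 2 si-A1 arrays and 1 si-A2 array. Its levels then ran from 4.18 to 5.42 in si-SCRL, from 3.30 to 4.22 in si-A1 and from 2.22 to 3.97 in si-A2, and the log2 fold changes of -0.93 ± 0.36 and -1.27 ± 0.36 were not called (adjusted p = 0.309 and 0.15). At 48 h DCK was well above background on all 11 arrays. There it fell by 1.55 ± 0.30 after si-A1, to 34.3% of control (adjusted p = 0.0095), from a range of 4.86 to 5.82 in si-SCRL to one of 3.41 to 3.92 in si-A1. After si-A2 the range of 3.59 to 4.89 overlapped the controls, with a change of -0.84 ± 0.32 (adjusted p = 0.23). Within the slides the si-A1 difference was -1.97 and -1.12. With normexp background correction it was only -0.47, and the call was lost without any array other than si-A2 replicates 3 and 4 (adjusted p of at most 0.0311).

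**Figure D2:**
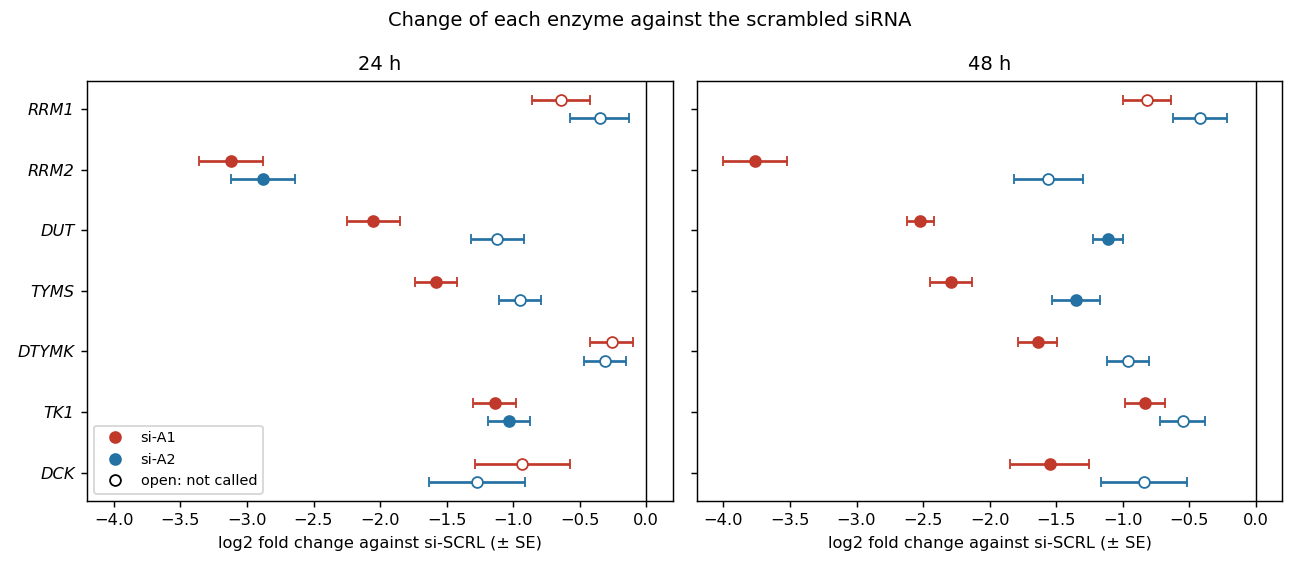
Log2 fold change (± SE, limma with the slide as a term) of each enzyme against si-SCRL at 24 h (left) and 48 h (right). Filled symbols passed the threshold and open symbols did not. All 28 estimates lie below 0, from -3.76 for RRM2 in si-A1 at 48 h to -0.26 for DTYMK in si-A1 at 24 h.

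Counted together at 24 h, 4 of the 7 genes were called lower after si-A1, namely RRM2, DUT, TYMS and TK1, where 0.958% of all 36639 genes tested were called lower. After si-A2, 2 of the 7 were called lower, RRM2 and TK1, against 0.827%. For the 7 genes the median log2 fold change of si-A1 was -1.14 and that of si-A2 -1.03, where the median of all genes was 0.05 in both comparisons. Between the 2 siRNAs none of the 7 was called at 24 h, where 0.205% of all genes were called higher in si-A2. Before adjustment, DUT and TYMS had p-values of 0.000785 and 0.00205 in that limma comparison. The RRM2, DUT and TYMS calls for si-A1 and the RRM2 call for si-A2 held in all 25 other settings tried.

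At 48 h, 6 of the 7 genes were called lower after si-A1, all except RRM1, where 3.66% of the 37694 genes tested were called lower. After si-A2, 2 of the 7 were called lower, DUT and TYMS, against 0.379%. The medians of the 7 were -1.64 and -0.96, beside 0.06 and 0.01 for all genes. Higher in si-A2 than in si-A1 were 2 of the 7, RRM2 and DUT, where 0.918% of all genes were called higher, and all 7 estimates were above 0, from 0.27 for TK1 to 2.20 for RRM2. No enzyme was called higher than si-SCRL in any comparison, and no within-slide difference from si-SCRL was above 0.

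The si-A2 calls at 48 h rested on 3 si-A2 arrays and were lost in several other settings. TYMS was no longer called without any one of the 11 arrays (adjusted p from 0.0133 to 0.032), nor was DUT without any array other than si-A1 replicates 1 and 4 (adjusted p from 0.0106 to 0.0218). With the replicate number as a block in place of the slide, DUT (-1.09, adjusted p = 0.0166) and TYMS (-1.36, adjusted p = 0.013) were no longer called, and in that fit 0 of all genes were called for si-A2, against 167 with the slide term. The same block ended the si-A1 calls of DCK (adjusted p = 0.0116) and TK1 (adjusted p = 0.0182) and added TYMS (0.92, adjusted p = 0.00909) to the genes higher in si-A2 than in si-A1.

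The array left out stood apart for these enzymes as well. With the 12 arrays of 48 h normalized together, it gave a log2 intensity of 1.07 for RRM2, where the other 11 arrays lay between 5 and 9.36, and of 1.19 for DTYMK, where they lay between 6.03 and 8.23. Its TK1 value, 10.38, was above all others, the highest of which was 8.23. Of the 8 probes only TK1 and the brighter DUT probe were rated well above background on it. With this array kept in the fit, none of the 7 genes was called in any comparison at 48 h, and over all genes the si-A1 calls went from 2193 to 23 and the others to 0. The si-A1 fold changes remained near those above (-3.76 for RRM2, -2.57 for DUT and -2.27 for TYMS), but their adjusted p-values rose to 0.688, 0.0309 and 0.797. The si-A2 change of TK1 turned to 0.17, that of RRM2 went from -1.56 to -3.21 and that of DTYMK from -0.96 to -2.42, and the RRM2 difference between the siRNAs went from 2.20 to 0.55 (adjusted p = 0.776).

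Outside the 7 enzymes, the closest relative of a member went the other way. RRM2B, the alternative small subunit of the reductase, known as a p53 target that serves cells outside S phase, was at 7.44, 7.83, 7.40 and 7.65 in si-SCRL at 24 h. It was at 7.95, 7.81, 8.11 and 7.73 in si-A1 and at 8.82, 8.77, 8.56 and 8.96 in si-A2. All si-A2 arrays lay above all others, and RRM2B rose by 1.2 ± 0.15 after si-A2, or 2.29-fold (adjusted p = 0.00178). The change after si-A1 was 0.32 ± 0.15 and not called (adjusted p = 0.428). The direct difference of 0.88 ± 0.15 between the siRNAs was not called either (adjusted p = 0.0225).

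At 48 h the RRM2B levels were 6.77, 6.44, 6.73 and 6.47 in si-SCRL, 7.29, 7.14, 7.19 and 7.23 in si-A1 and 7.52, 7.36 and 7.53 in si-A2. No group overlapped another. RRM2B rose after both siRNAs, the si-A1 change being 0.61 ± 0.11 (adjusted p = 0.00616) and the si-A2 change 0.87 ± 0.11 (adjusted p = 0.00856). With the replicate number as a block in place of the slide, 0 of all genes were called for si-A2 at 48 h, so this si-A2 call was lost. The same held with the dim array kept, where no gene was called for si-A2. A second, dimmer RRM2B probe gave 0.76 ± 0.16 for si-A2 at 24 h, not called among all probes (adjusted p = 0.0354), and 0.75 ± 0.14 and 1.16 ± 0.16 at 48 h, both called (adjusted p = 0.00931 and 0.00942). Its si-A1 change at 24 h was 0.03 ± 0.16. The reductase subunits thus ranked differently by siRNA at 48 h, with RRM2 lowest in si-A1 and RRM2B highest in si-A2, although the RRM2B difference of 0.26 ± 0.11 between the siRNAs was not called (adjusted p = 0.269).

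**Figure D3:**
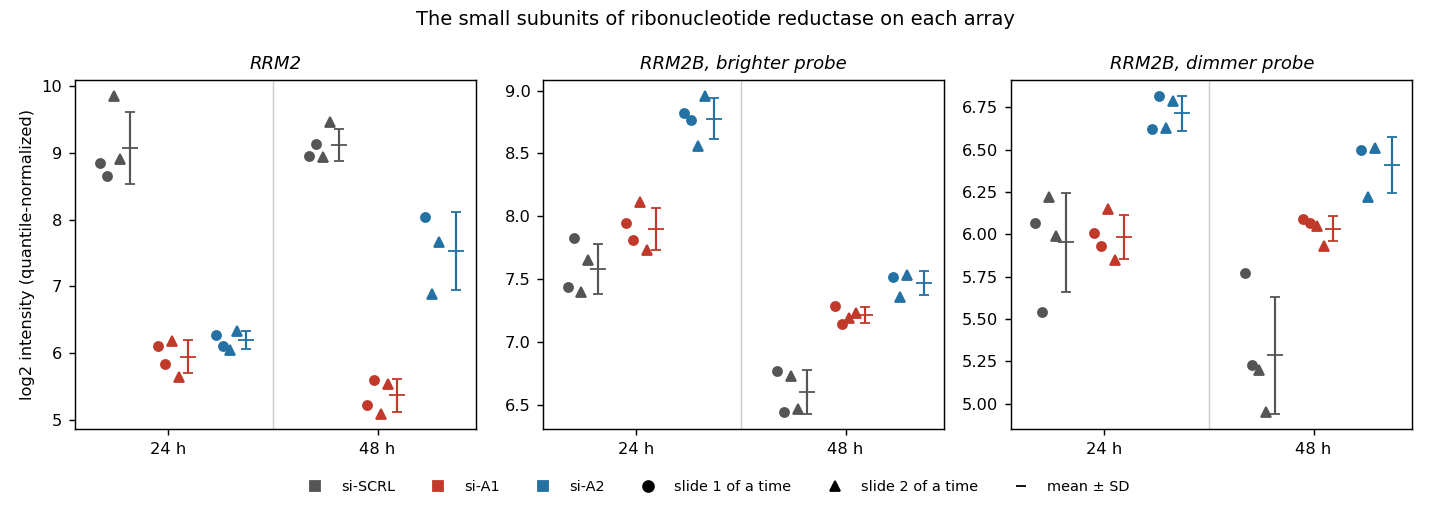
Quantile-normalized log2 intensity of RRM2 and of both RRM2B probes on each array, by siRNA and time point, with mean ± SD; levels are not comparable between panels. RRM2 lies below si-SCRL in all si-A1 and si-A2 arrays, and the brighter RRM2B probe lies above si-SCRL in all si-A2 arrays at both times, from 8.56 to 8.96 at 24 h and from 7.36 to 7.53 at 48 h.

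Neither mitochondrial salvage kinase was called in any comparison. DGUOK, the deoxyguanosine kinase of mitochondria, changed by 0.21 ± 0.13 and 0.26 ± 0.13 at 24 h and by 0.05 ± 0.09 and 0.12 ± 0.09 at 48 h for si-A1 and si-A2, with no call (adjusted p from 0.525 to 0.764). TK2, the mitochondrial thymidine kinase, was too dim to be tested at 24 h, and at 48 h its probe was well above background on 1 of 11 arrays, so no change is given.

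RRM2B, TK2 and DGUOK belong to a list of 44 further genes of deoxynucleotide supply, which covers folate and thymidylate supply, nucleotide kinases, nucleotide removal, base synthesis, and turnover and transport. Of these, 43 were above background at 24 h and 44 at 48 h. At 24 h 1 was called lower and 0 higher after si-A1, where 0.958% and 0.0737% of all genes were, and 0 lower and 1 higher after si-A2, against 0.827% and 0.0764%, the latter gene being RRM2B. The medians of their log2 fold changes were -0.02 and -0.08. At 48 h 9 were called lower and 2 higher after si-A1, where 3.66% and 2.16% of all genes were, and 1 lower and 1 higher after si-A2, against 0.379% and 0.0637%. The medians were then -0.20 and -0.09. The median of all genes was between 0.01 and 0.06 in these comparisons.

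**Figure D4:**
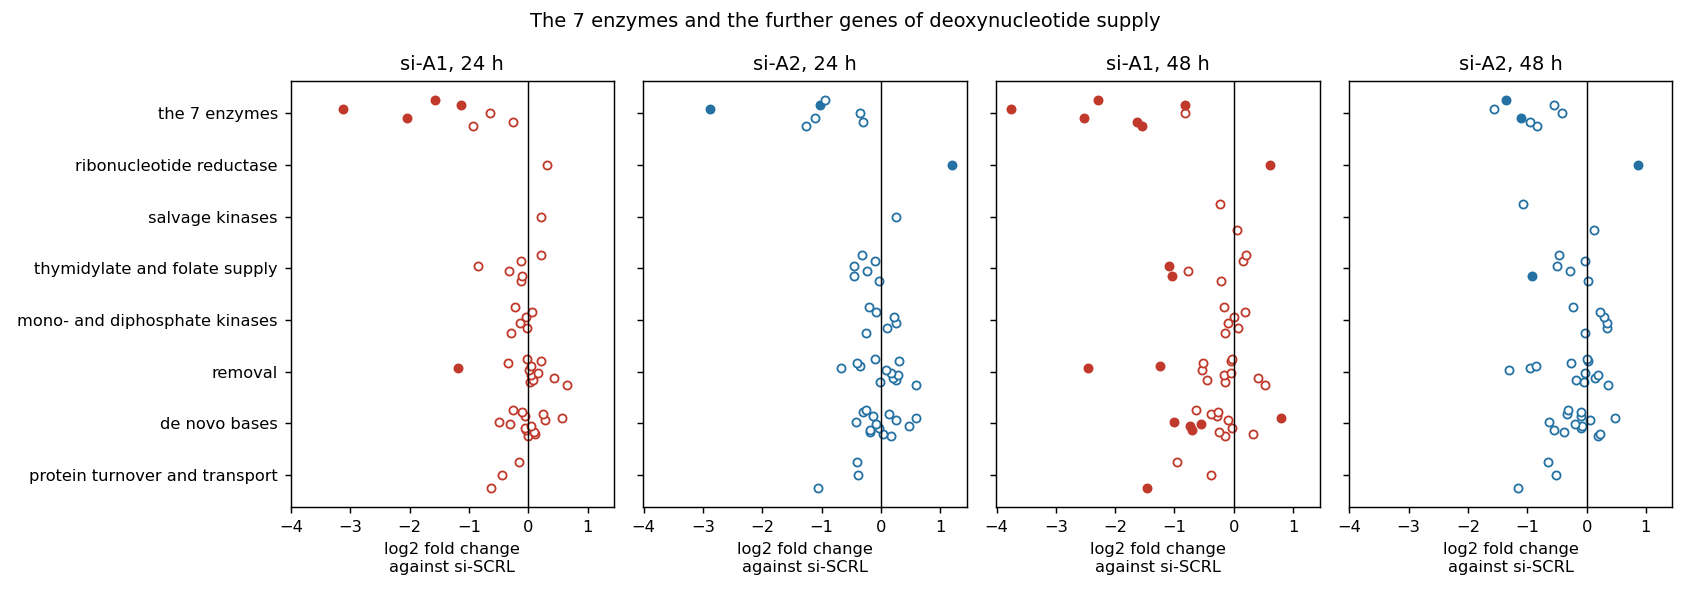
Log2 fold change against si-SCRL of the 7 enzymes (top row) and of the further genes above background, by role, in the 4 comparisons with si-SCRL; each symbol is 1 gene and filled symbols passed the threshold. Most of the further genes lie near 0, with NUDT1 at -2.45 in si-A1 at 48 h, and the 7 enzymes run from -3.76 to -0.26.

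Among genes of nucleotide removal, NUDT1, which hydrolyses oxidized purine nucleoside triphosphates, was called lower after si-A1 at both times. After si-A1 it fell by 1.18 ± 0.13 at 24 h (adjusted p = 0.000743) and by 2.45 ± 0.15 at 48 h (adjusted p = 4.94e-05). The si-A2 changes of -0.67 ± 0.13 at 24 h and -0.95 ± 0.16 at 48 h were not called (adjusted p = 0.0297 and 0.0216). Its 48 h level was higher in si-A2 than in si-A1 by 1.5 ± 0.16 (adjusted p = 0.00237), with a mean of 7.12 ± 0.44 (SD, n = 3) in si-A2, 5.74 ± 0.28 (n = 4) in si-A1 and 8.19 ± 0.62 (n = 4) in si-SCRL. Of the 12 genes of removal, 10 were not called in any comparison.

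In folate and thymidylate supply, 2 of 6 genes were called lower after si-A1 at 48 h, where 3.66% of all genes were. MTHFD2, a mitochondrial folate enzyme, fell by 1.09 ± 0.11 (adjusted p = 0.000452). At 24 h its si-A1 change of -0.84 ± 0.15 narrowly missed the threshold (adjusted p = 0.0129 among all probes).

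Base synthesis had 14 genes, of which 4 were called lower and 1 higher after si-A1 at 48 h, where 3.66% and 2.16% of all genes were, with none called in the other comparisons. GMPS, the last step to GMP, fell by 1.01 ± 0.14 (adjusted p = 0.00211). IMPDH2, which catalyses the step before it, rose by 0.80 ± 0.12 (adjusted p = 0.00323), so the RNA of these genes moved in opposite directions. The related IMPDH1 changed by -0.09 ± 0.11 and was not called (adjusted p = 0.667). CCNF, the F-box protein that targets RRM2 protein for degradation, was called lower after si-A1 at 48 h (adjusted p = 0.00414), where its probe was well above background on 4 of 4 si-SCRL arrays and 0 of 4 si-A1 arrays, so no size is given for the change. It was the only call among 3 genes of turnover and transport. None of the 6 nucleoside mono- and diphosphate kinases was called.

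The 7 enzymes lay apart to differing degrees by a distance that counts the size of the changes as well as their shape. After each gene was centred on its mean within a time point, the root mean square difference between the profiles of a pair over 23 arrays was lowest for DUT and TYMS, 0.30, and highest for RRM1 and RRM2, 1.29, although the latter encode the subunits of 1 enzyme. DTYMK lay nearest TK1, at 0.43, and RRM1, at 0.46. RRM2 was at least 0.67 from any other member, DUT being its nearest. The profiles were not scaled, and their own root mean square was 1.54 for RRM2, 0.98 for DUT and 0.51 for RRM1. Whether they differ in shape apart from size was not tested.

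Over 17693 genes the profiles nearest to RRM2 were those of BRCA1, a homologous recombination gene, and RAD51AP1. Both lay at a root mean square difference of 0.27, where the median gene was at 1.59. TYMS lay nearest to NCAPD2, a condensin subunit, at 0.16, and to PCNA, the sliding clamp of replication, at 0.24 (median gene 0.91). For DUT the nearest were NCAPG2 and CENPQ, both 0.26 (median gene 1.04), and for TK1 they were XRCC3 and CDCA8, both 0.22 (median gene 0.58). DTYMK lay nearest to TMPO-AS1, at 0.19, and DYNC2I2, at 0.20 (median gene 0.62). RRM1 had NSD2 (0.30) and SNRPC (0.31) as neighbours (median gene 0.60), and DCK had TAF9B (0.30) and USP1 (0.31) (median gene 0.83). These distances describe the same arrays, which share slides and controls, and carry no test.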

How the data were processed

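RNA of LNCaP cells was hybridised to one-colour Agilent arrays by the authors, who deposited scanner files holding the processed spot intensity, background-subtracted by the scanner software, and a matrix of log2 values, quantile-normalized over all spots of a time point, which ordered the spots as the processed intensity did and served only as an alternative. Per the submitters' processing notes, R 3.4.3, limma 3.34.8 and build hg38 were used. Log2 intensities were quantile-normalized within a time point (12 arrays at 24 h, 11 at 48 h), control and flagged spots were left out, and repeated spots averaged. Probes above the mean plus 3 SD of 308 negative control spots on at least 3 arrays were kept (44849 of 50599 and 45200 of 58201), with the brightest probe for a gene. Gene names came from RefSeq accessions (29033 and 31104 probes). At each time point 1 model over the 3 siRNAs was fitted with limma 3.58.1 in R 4.3.3, with the slide as an additive term. The change between time points was tested on probes shared by both array versions, with 23 arrays normalized together. The self-test on simulated data ran on the same code. No spot was saturated on the arrays, and their number limits the precision.

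The array 48 h si-A2 replicate 2 was left out for its low intensity. The study's methods set aside 1 si-A2 array of 48 h for low intensity, without giving its number. The 7 genes, the further genes, the motif words and the alternatives were chosen with earlier results of these data known. All 7 enzymes are named, and from the 44 further genes RRM2B, TK2, DGUOK and the called genes with the largest changes, some of which are not reported here. Replicate numbers come from the labels. At 48 h samples of the same number deviated together, with correlations from 0.189 to 0.372 (median 0.23). Other numbers on the same slide did so nearly as much, from 0.105 to 0.306 (median 0.202), so pairing by number beyond the slide is not settled. The replicate block is therefore given for the calls of the 7 enzymes that it changed. The planned normexp alternative used the median spot signal, since the files hold no mean signal. The study's methods call the replicates biological, and p-values measure the spread between these samples.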

Additional observations from a re-analysis of the deposited data

Results flagged for a closer look

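DCK showed a low outlying array in each of 2 groups. At 24 h, si-A2 replicate 1 stood at a log2 intensity of 2.22, while the other 3 si-A2 arrays lay between 3.72 and 3.97. DCK was well above background on only 1 of these 4 arrays, and not on replicate 1. At 48 h, si-A1 replicate 2 stood at 3.41, the other si-A1 arrays lying between 3.86 and 3.92. Of 35 groups of values tested for an outlying array, 2 were thus found, where chance gives about 1 in 20.

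For 3 genes an effect differed between siRNAs or between time points by a test of the difference itself. At 48 h the level in si-A2 exceeded that in si-A1 by 1.40 on the log2 scale for DUT and by 2.20 for RRM2. For DTYMK the si-A1 effect at 48 h minus that at 24 h was -1.39.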

How the results depend on the processing

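The counts of the 7 enzymes called kept within 1.5 times of the main counts (si-A1, si-A2 and si-A2 against si-A1: 4, 2 and 0 at 24 h, 6, 2 and 2 at 48 h) except as follows. For si-A2 at 24 h, 4 were called with normexp background correction and 4 with the well-above-background filter, but 1 when only the groups compared were fitted, 1 with the interquartile filter and 1 with the replicate block. For si-A2 at 48 h, 4 were called with normexp, 1 with no filter on low values, and 0 with the interquartile filter, with only the groups compared and with the replicate block. For si-A2 against si-A1 at 48 h, 0 were called with only the groups compared. Keeping the dim array gave 0 in the 48 h comparisons and 0 for the change of the si-A1 effect, against 1. Leaving out each array in turn gave 3 to 4, 1 to 3 and 0 to 1 called at 24 h, 4 to 5, 0 to 1 and 0 to 2 at 48 h, and 0 to 1 (si-A1) and 0 to 0 (si-A2) for the change of the effect.

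With the replicate block at 24 h, where the numbers did not pair the samples (correlations from -0.152 to 0.151), TK1 missed the threshold for si-A1 (adjusted p = 0.0116) and si-A2 (adjusted p = 0.0203). The block changed no other call at 24 h or for the change of the effect.

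The sizes of the changes also depended on the background correction. With normexp the si-A1 changes at 48 h were -2.57 for RRM2, -2.19 for DUT, -1.5 for TYMS and -1.13 for DTYMK. The main values were -3.76, -2.52, -2.29 and -1.64, so the percentages of control given above hold for the main setting only. Of the differences, 20 changed sign, all from values not called. With the dim array kept, TK1 after si-A2 at 48 h was 0.17, si-A2 against si-A1 at 48 h gave -0.21 for DCK, -0.77 for DTYMK, -0.64 for RRM1 and -0.10 for TYMS, and the change of the si-A2 effect gave -0.34 for DUT, -0.29 for RRM2 and -0.20 for DCK. For si-A2 against si-A1 at 24 h, DCK ran from -0.62 to 0.02 without single arrays (0.02 without si-A2 replicate 1), and DTYMK reached 0.00 and 0.01 when si-A1 replicate 3 or si-A2 replicate 4 was dropped. The change of the si-A2 effect on RRM1 and DUT was 0.02 and 0.00 with normexp. Without single arrays it ran from -0.17 to 0.18 for DUT and from -0.25 to 0.17 for RRM1, whose change of the si-A1 effect ran from -0.38 to 0.01. The causes were not tested.

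Over all genes, the number called was 378, 331 and 113 at 24 h for si-A1, si-A2 and si-A2 against si-A1, and 2193, 167 and 506 at 48 h. It ranged from 136 to 528, 152 to 422, 17 to 312, 23 to 2761, 0 to 486 and 0 to 712 over the other settings, and from 198 to 321, 211 to 326, 27 to 253, 1094 to 2288, 1 to 72 and 20 to 442 without single arrays.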
